A study of Homo sapiens with 6 samples.

Results

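The genes described are 10 members of the ERBB growth factor system, namely the receptor genes EGFR, ERBB2 and ERBB3, the ligand genes HBEGF, AREG, EREG, TGFA and BTC, and the inhibitor genes ERRFI1 and LRIG1. They were taken by symbol from a count table of 26485 gene symbols, and all 10 were found and passed the filter on low counts. RNA was sequenced from PC-9, a human lung adenocarcinoma line that carries a mutant EGFR, in 2 groups of 3 biological replicates. The cells of one group stably expressed an shRNA (a short hairpin RNA that depletes a matching transcript) against IFITM3, called shIFITM3 here. The cells of the other were controls, called shControl. The labels speak of a control shRNA, but the library names read ShEV, which may stand for an empty vector, and which of these it was remains unknown here. The medium was RPMI with fetal bovine serum in both groups, and no drug is named. Whether the stable cells were 1 clone or a mixed population is not given in the sources used here, nor is the hairpin sequence. Only 1 hairpin against IFITM3 is described, so a change due to that hairpin and one due to loss of IFITM3 cannot be told apart.

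ERBB receptors are tyrosine kinases that signal as pairs. EGFR binds HB-EGF, amphiregulin, epiregulin, TGF-alpha and betacellulin. ERBB2 has no known ligand and serves as a partner, and ERBB3 has a weak kinase and recruits PI3 kinase when paired. The ligands are made as membrane-bound precursors and released by metalloproteases. Active receptors induce their own inhibitors, among them ERRFI1 (also called MIG6), which binds the kinase domain and is encoded by an ERK-induced gene, while LRIG1 is a transmembrane protein that promotes receptor degradation. In EGFR-mutant lung cancer these genes matter because the tumour cells depend on EGFR signals and can bypass EGFR inhibitors through ERBB3 and ligand supply.

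Total counts were between 21342028 and 27493145 in 5 libraries and 77228760 in shControl replicate 2. IFITM3 was at 57.0, 60.5 and 62.7 CPM (counts scaled by the size of each library) in the control samples and 10.4, 12.9 and 9.75 CPM in the knockdown samples, which goes with all 6 labels. Epithelial markers were abundant, with the 8 listed genes summing to 9975 to 10110 CPM in shControl and 8624 to 8841 CPM in shIFITM3. Of these CDH1, KRT8 and KRT18 were lower in the knockdown, EPCAM and CLDN4 were higher, and KRT7, KRT19 and CLDN7 were not called. Of 6 lung adenocarcinoma markers NKX2-1, SFTPA1, SFTPB, SFTPC and NAPSA were each at most 0.348 CPM, and MUC1 was at 7.21 to 11.4 CPM and not called. Of 7 fibroblast markers COL1A1 was higher (9.55 ± 0.841 CPM in shControl, 11.5 ± 1.74 CPM in shIFITM3, SD, n = 3 each), of 6 leukocyte markers CD68 was higher (65.7 ± 4.21 CPM in shControl, 75.9 ± 2.93 CPM in shIFITM3), and the others of these lists were at or near 0. The 5 endothelial markers summed to 3.43 to 4.29 CPM in shControl and 5.26 to 6.36 CPM in shIFITM3, with KDR and CDH5 higher, PECAM1 lower, and VWF and CLDN5 near 0. The part of these markers in the results was not tested. In bulk RNA, fewer cells of a type and less RNA per cell cannot be told apart.

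Promoter sequences of 6 genes are shown first, so that members called higher in shIFITM3 can be set beside 2 ligand genes of 1 cluster on chromosome 4. Of these 2, EPGN fell and AREG was not called. Each run is the 250 bases before the RefSeq start site (GRCh38.p14), 5′ to 3′ on the gene's strand, with matches to a motif in capitals. The motifs searched on both strands were the AP-1 motif TGANTCA, the FOXO motif GTAAACA, the TEAD motif GGAATG, the sterol response motif TCACNCCAC, the TATA box TATAAA and the GC box of SP1, GGGCGG. In HBEGF a pair of GC boxes overlap by 1 base, and no other shown matches overlap. HBEGF (chr5:140346604-140346853, minus strand), EGFR (chr7:55018767-55019016, plus strand), ERRFI1 (chr1:8026310-8026559, minus strand) and LRIG1 (chr3:66501122-66501371, minus strand) are the higher genes. AREG (chr4:74444886-74445135, plus strand) and EPGN (chr4:74308220-74308469, plus strand) are ligand genes of the chromosome 4 cluster.
HBEGF: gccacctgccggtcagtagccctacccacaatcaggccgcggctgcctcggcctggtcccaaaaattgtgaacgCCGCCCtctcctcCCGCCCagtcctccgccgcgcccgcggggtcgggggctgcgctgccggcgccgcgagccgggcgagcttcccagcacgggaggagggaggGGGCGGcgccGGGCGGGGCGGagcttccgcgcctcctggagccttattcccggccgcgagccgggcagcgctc
EGFR: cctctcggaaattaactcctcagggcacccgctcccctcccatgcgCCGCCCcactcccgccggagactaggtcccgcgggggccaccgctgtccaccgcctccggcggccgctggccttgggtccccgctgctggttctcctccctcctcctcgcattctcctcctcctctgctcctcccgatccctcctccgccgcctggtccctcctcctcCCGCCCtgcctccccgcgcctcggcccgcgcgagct
ERRFI1: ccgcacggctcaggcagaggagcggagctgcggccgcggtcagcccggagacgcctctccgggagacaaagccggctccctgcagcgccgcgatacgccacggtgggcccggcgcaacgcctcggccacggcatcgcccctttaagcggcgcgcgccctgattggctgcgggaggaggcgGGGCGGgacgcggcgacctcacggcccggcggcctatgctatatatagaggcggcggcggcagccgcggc
LRIG1: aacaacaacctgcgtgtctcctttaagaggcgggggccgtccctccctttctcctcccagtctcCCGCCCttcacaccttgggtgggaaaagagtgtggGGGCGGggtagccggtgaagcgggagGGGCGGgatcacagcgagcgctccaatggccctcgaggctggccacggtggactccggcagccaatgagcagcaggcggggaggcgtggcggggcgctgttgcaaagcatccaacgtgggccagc
AREG: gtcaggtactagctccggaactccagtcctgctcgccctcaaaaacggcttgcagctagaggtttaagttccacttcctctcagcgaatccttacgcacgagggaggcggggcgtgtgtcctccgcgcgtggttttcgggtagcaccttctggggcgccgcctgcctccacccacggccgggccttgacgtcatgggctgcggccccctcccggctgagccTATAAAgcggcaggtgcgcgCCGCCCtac
EPGN: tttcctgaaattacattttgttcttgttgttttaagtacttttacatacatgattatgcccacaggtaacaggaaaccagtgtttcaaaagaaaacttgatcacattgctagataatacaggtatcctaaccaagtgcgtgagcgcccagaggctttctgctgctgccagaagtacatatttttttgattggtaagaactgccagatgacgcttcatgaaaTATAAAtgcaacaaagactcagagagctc

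The 4 higher genes with a promoter entry each held at least 1 GC box, 5 matches in HBEGF, 3 in LRIG1, 2 in EGFR and 1 in ERRFI1. None of the 4 held any of the other motifs in the exact letters searched. Variant forms of the TATA box were not searched, and the ERRFI1 window holds the run tatatata. GC boxes stood in 42.3% of all 27305 promoter windows of this length, and among the members that were not called AREG and TGFA held them too. The GC content of these windows was 76.4% in HBEGF, 73.6% in EGFR, 75.2% in ERRFI1 and 66.8% in LRIG1. In the members not called it was 75.6% in TGFA, 65.6% in ERBB2, 65.2% in AREG, 62% in BTC and 58% in EREG. The GC content of all windows was not computed. A TATAAA match, found in 11.1% of all windows, stood in the ligand genes AREG (29 bases before the start), EREG (32 bases), EPGN (29 bases) and NRG4 (8 bases). The NRG4 window (chromosome 15, 76012425 to 76012674, minus strand) lies inside the span of the gene (75935393 to 76060240), so its start site is an internal one. Among the members, the AP-1 motif (6.6% of all windows) was found in ERBB2, the FOXO motif (2.98%) in BTC and the TEAD motif (11.9%) in EREG, and the sterol response motif (0.875%) in none of the 9 with an entry. The fifth higher member, ERBB3, is not shown. These matches are letters in a window and say nothing of binding.

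In knockdown cells both EGFR and its partner ERBB3 were higher, 1 of the 5 ligand genes (HBEGF) rose 2.93-fold, and both inhibitor genes were higher. Of the 10 members 5 rose and 0 fell (edgeR quasi-likelihood test, Benjamini-Hochberg adjusted over all 14018 tested genes, threshold 0.05). Among all tested genes 56.1% passed, 27.7% higher and 28.4% lower, so the share of members that passed, 5 of 10, lay near the background. No member was lower at an unadjusted p under 0.05 either (0 in edgeR), and DESeq2 and limma-voom called 0 lower. In 6 of the 10 members the groups stood apart in CPM with no overlap, as they did in 60.9% of all tested genes. The median log2 fold change of the members (shIFITM3 against shControl) was 0.25, and that of all tested genes was -6.33e-05.

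**Figure D1:**
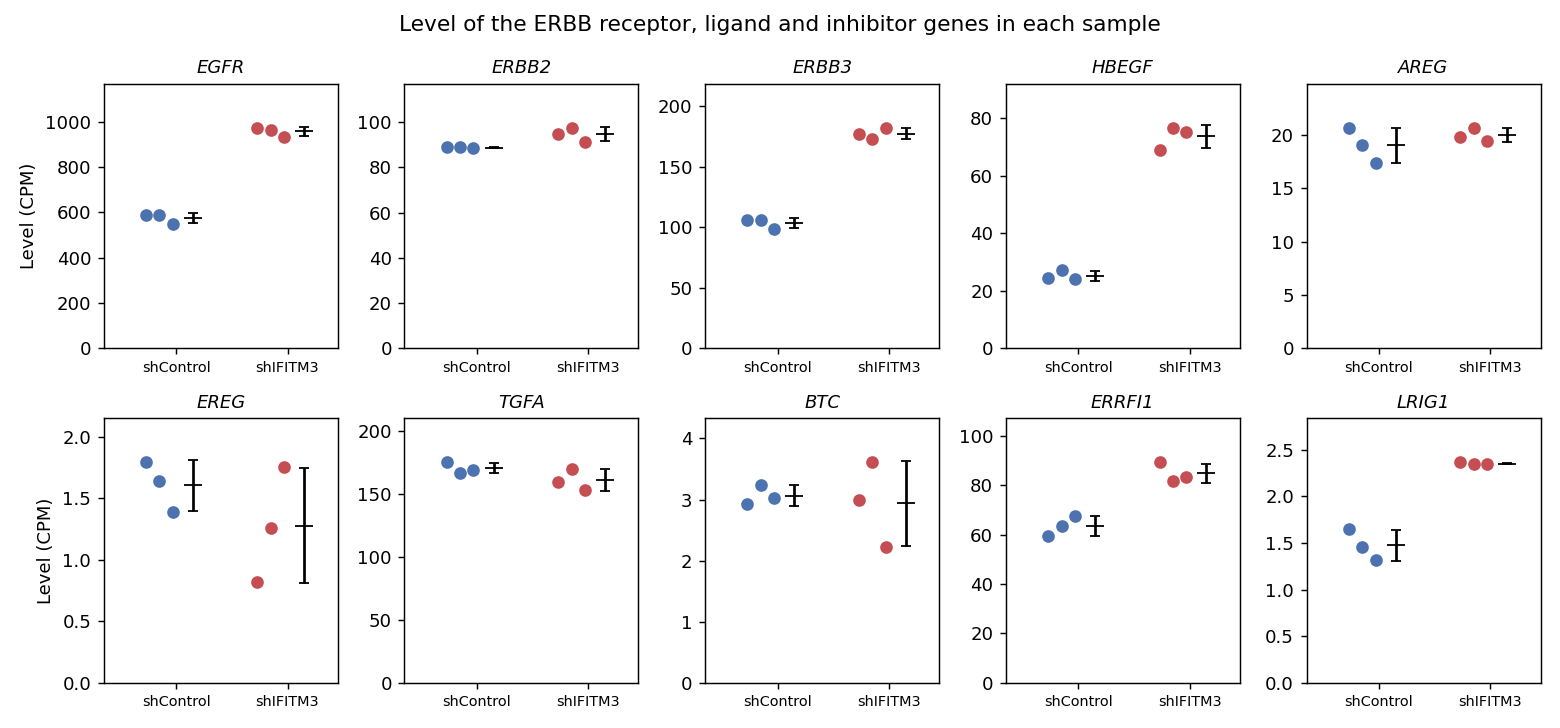
Level in CPM (vertical axes, each from 0) of the 10 members in the 3 shControl and 3 shIFITM3 samples; points are samples and black bars the mean and SD. The groups stand apart in EGFR, ERBB2, ERBB3, HBEGF, ERRFI1 and LRIG1 and overlap in AREG, EREG, TGFA and BTC.

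Among the receptors, EGFR (chromosome 7, 55019017 to 55211628) was at 586, 590.0 and 548 CPM in the control samples and 974, 965 and 934.5 CPM in the knockdown samples. The lowest knockdown sample lay far above the highest control sample. The level was 1.67 times higher, a log2 fold change of 0.74 (SE 0.0306, 95% confidence interval 0.67 to 0.80, edgeR adjusted p = 7.54e-16). ERBB3 (chromosome 12, 56080108 to 56103505) was at 106, 105.5 and 98.6 CPM in shControl and 177, 173 and 182 CPM in shIFITM3. It rose by much the same factor, 1.71, with a log2 fold change of 0.78 (SE 0.0403, interval 0.69 to 0.86, edgeR adjusted p = 5.42e-14). The intervals of EGFR and ERBB3 overlap.

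ERBB2 (chromosome 17, 39688094 to 39728658), the preferred partner of the other receptors, was at 88.8, 89.1 and 88.4 CPM in shControl and 94.8, 97.6 and 91.4 CPM in shIFITM3. The groups did not overlap, but the difference was small, with a log2 fold change of 0.09 (SE 0.0424, interval without adjustment 0.0034 to 0.18) that missed the threshold (edgeR adjusted p = 0.0719). It passed under total-count scaling, the strict filter, halved counts and without shIFITM3 replicate 3, with adjusted p of 0.0465, 0.0388, 0.0493 and 0.0488. The ratio of EGFR to ERBB2, both as CPM per kilobase of exon, was 3.30, 3.31 and 3.10 in shControl and 5.13, 4.94 and 5.11 in shIFITM3. The ratio of ERBB3 to ERBB2 on the same scale was 0.909, 0.902 and 0.851 in shControl and 1.42, 1.35 and 1.52 in shIFITM3, so that ERBB3 was below ERBB2 in every control sample and above it in every knockdown sample. ERBB2 thus made up a smaller share of the receptor transcripts in the knockdown, 19.5% ± 0.584 in shControl and 13.35% ± 0.319 in shIFITM3 (SD, n = 3 each). With the median transcript length in place of merged exons, a choice made after seeing the data, ERBB3 lay above ERBB2 in both groups and the ERBB2 share was 10.2% and 6.71%. The length sets the size of a ratio between 2 genes, but not its fold change from shControl to shIFITM3. For a share of a sum, the fold change depends on the length as well, and the ERBB2 share was lower in shIFITM3 on either length. The fourth receptor gene, ERBB4, was too low to be tested, with 0 to 10 counts in a library.

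Among the 5 ligand members the largest change was that of HBEGF (chromosome 5, 140332843 to 140346603), which encodes heparin-binding EGF-like growth factor, a ligand of EGFR and ERBB4. Its level was 24.2, 27.0 and 24.0 CPM in the control samples and 68.9, 76.6 and 75.2 CPM in the knockdown samples. Every knockdown sample held more than the highest control sample by a wide margin. On average HBEGF went from 25.1 ± 1.70 to 73.6 ± 4.11 CPM (SD, n = 3 each), 2.93 times higher, with a log2 fold change of 1.54 (SE 0.0602, interval 1.41 to 1.66, edgeR adjusted p = 2.46e-16). It was the 1 member that changed at least 2-fold, as did 4.83% of tested genes upwards and 1.69% downwards, and 1.92% of tested genes had a larger log2 fold change. The 3 genes whose log2 CPM followed HBEGF most closely over the 6 samples were TMED4, SMAD3 and YPEL3, with Pearson r of 0.9995, 0.9995 and 0.9992 among 11095 genes compared. All 3 rose, YPEL3 from 12.4 ± 1.16 to 46.2 ± 1.56 CPM (SD, n = 3 each). With 2 groups that lie apart such values are common, and 1694 genes had an r above 0.95.

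The other 4 ligand genes of the set were not called. TGFA (chromosome 2, 70447284 to 70553826) was at 175, 167 and 169 CPM in shControl and 159.6, 170.05 and 153 CPM in shIFITM3. Its log2 fold change was -0.08 (SE 0.0403, interval -0.16 to 0.0032, edgeR adjusted p = 0.0951). It passed as a fall under upper-quartile scaling (adjusted p = 0.0423) and without shIFITM3 replicate 2 (0.0115), its highest knockdown sample. AREG (chromosome 4, 74445136 to 74455005), which encodes amphiregulin, was at 20.6, 19.1 and 17.4 CPM in shControl and 19.8, 20.7 and 19.4 CPM in shIFITM3. The groups overlapped, and the interval of its log2 fold change, -0.10 to 0.24, lies wholly below that of HBEGF (edgeR adjusted p = 0.475).

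BTC (betacellulin; chromosome 4, 74744759 to 74794523) was at 2.92, 3.25 and 3.03 CPM in shControl and 2.997, 3.61 and 2.22 CPM in shIFITM3, with the knockdown samples both above and below the controls. Its log2 fold change was -0.07 (interval -0.49 to 0.35, edgeR adjusted p = 0.781), and 0.10 without shIFITM3 replicate 3. EREG (epiregulin; chromosome 4, 74365145 to 74388749) was at 1.79, 1.64 and 1.39 CPM in shControl and 0.817, 1.26 and 1.76 CPM in shIFITM3. These rest on 18 to 126 counts a library, and the knockdown samples spread widely. The gene was not called, and the interval of -0.94 to 0.30 does not exclude a fall of nearly 2-fold (edgeR adjusted p = 0.386).

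**Figure D2:**
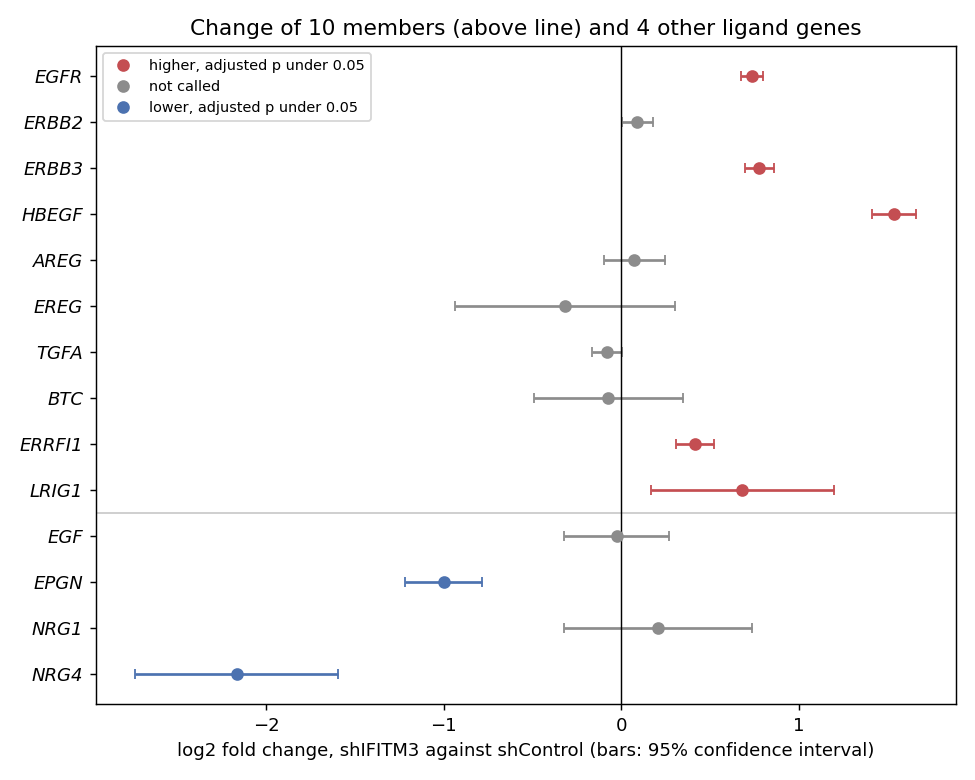
Log2 fold change of shIFITM3 against shControl (horizontal axis) with its 95% confidence interval, for the 10 members and, under the line, 4 other ligand genes that could be tested. Red marks genes called higher, blue genes called lower and grey genes not called; HBEGF stands highest at 1.54 and NRG4 lowest at -2.17.

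The ligand genes outside the set went the other way where they changed. EPGN, which encodes epigen, a further EGFR ligand, was at 18.5, 15.5 and 17.5 CPM in shControl and 7.67, 9.08 and 8.74 CPM in shIFITM3. The fall was close to 2-fold, a log2 fold change of -0.999 (SE 0.105, interval -1.22 to -0.78, edgeR adjusted p = 1.8e-08). EPGN (chromosome 4, 74308470 to 74316789) lies in 1 cluster of 486 kilobases with EREG, AREG and BTC and no other protein-coding gene of the RefSeq table, yet the interval of EPGN lies wholly below those of AREG and BTC. It overlaps that of EREG. NRG4, a neuregulin gene whose product binds ERBB4, was at 3.11, 2.78 and 2.59 CPM in shControl and 0.636, 0.695 and 0.544 CPM in shIFITM3. No knockdown sample came near a control sample. Its log2 fold change was -2.17 (SE 0.277, interval -2.74 to -1.59, edgeR adjusted p = 4.19e-07), from 13 to 16 counts in each knockdown library. NRG1, which encodes the main ligand of ERBB3, was low in both groups (1.63 ± 0.117 and 1.90 ± 0.241 CPM, SD, n = 3 each) and not called (log2 fold change 0.21, edgeR adjusted p = 0.512). EGF had 7.28 ± 1.03 CPM in shControl and 7.19 ± 1.31 CPM in shIFITM3 (SD, n = 3 each; edgeR adjusted p = 0.89). NRG2 had no count in any library, which allows up to 0.141 CPM in the shallowest, and NRG3 had 4 counts in 1 knockdown library.

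Scaled to exon length, HBEGF made up a larger and EPGN a smaller part of the ligand transcripts in the knockdown. The summed level of the 7 EGFR ligand genes (the 5 members, EGF and EPGN) was 77.7, 74.2 and 72.9 CPM per kilobase of exon in shControl and 85.5, 92.7 and 87.4 in shIFITM3, 1.18 times higher. This direction depends on the length used: with the median transcript length of each gene, chosen after seeing the data, the sum was 269, 251 and 257 in shControl and 236, 256 and 236 in shIFITM3, 0.937 times the control with groups that overlapped. Without HBEGF the sum was lower in the knockdown on either length, 0.896 times the control with merged exons (64.4 ± 2.74 in shControl and 57.7 ± 2.48 in shIFITM3, SD, n = 3 each) and 0.853 times with the median transcript. As HBEGF is the ligand gene that rose, leaving it out favours a lower sum. Of the genes left in the sum only EPGN was called, and it fell. HBEGF made up 13.1%, 15.3% and 13.8% of the sum in shControl and 33.8%, 34.7% and 36.0% in shIFITM3. TGFA was the largest part in every sample, at 47.4% ± 0.885 and 37.9% ± 1.23, and EPGN went from 14.2% ± 1.099 to 5.93% ± 0.338 (SD, n = 3 each). In shControl the order of level was TGFA (35.5 CPM per kilobase), AREG (15.4), EPGN (10.6) and HBEGF (10.5), of which EPGN and HBEGF did not differ beyond their spread. In shIFITM3 it was TGFA (33.6), HBEGF (30.8), AREG (16.1) and EPGN (5.26), with the ranges of TGFA and HBEGF overlapping. EGF, BTC and EREG were at most 1.76 CPM per kilobase in all samples.

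The order of the ligands depends on the length used, because TGFA and EPGN have short and long annotated forms. With the median transcript length TGFA took 66.8% in shControl and 67.35% in shIFITM3, EPGN 21.2% and 11.2%, and HBEGF 4.07% and 12.7%. HBEGF then stood above EPGN and AREG in the knockdown and below both in the control. On either length the HBEGF share was higher, and the EPGN share lower, in each knockdown sample than in each control sample.

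**Figure D3:**
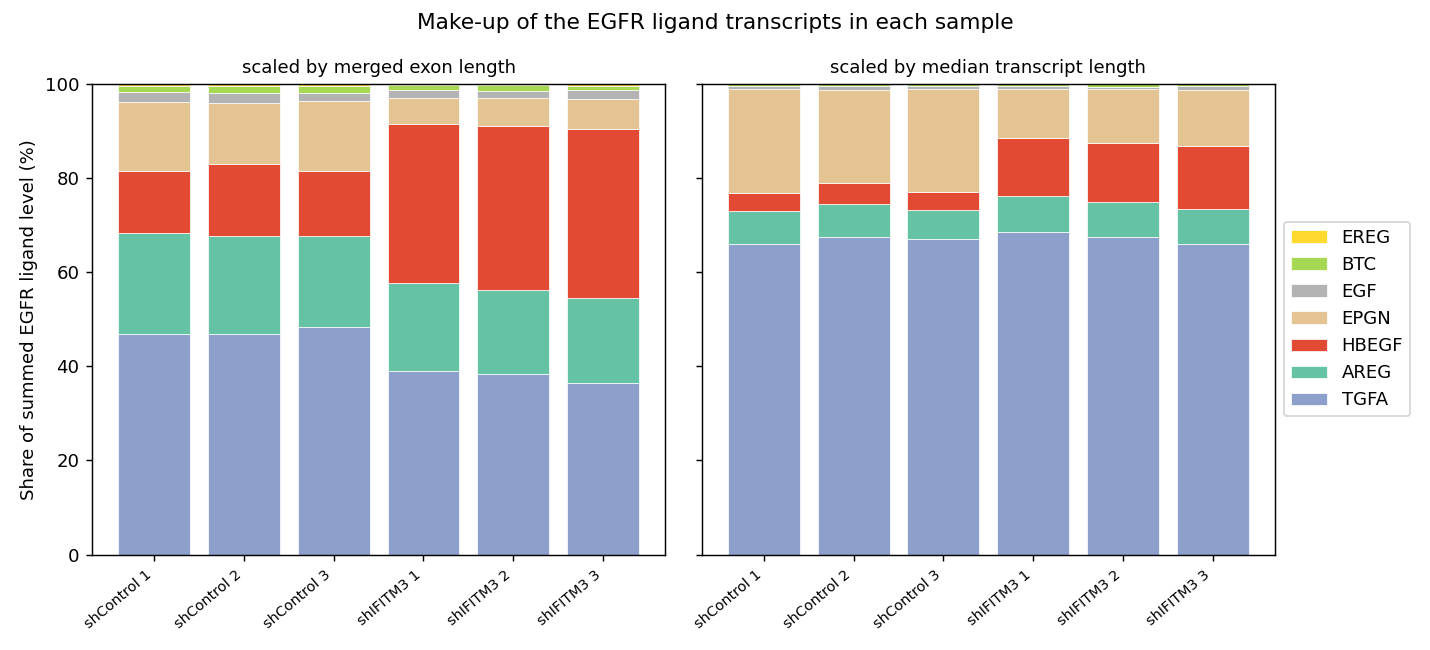
Share of each of 7 EGFR ligand genes in their summed length-scaled level (vertical axis, percent) for the 6 samples, scaled by merged exon length (left) and median transcript length (right). The HBEGF part is larger and the EPGN part smaller in all 3 shIFITM3 samples on both scales, while the TGFA part shrinks on the left scale only.

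Both inhibitor genes were higher in the knockdown. ERRFI1 (chromosome 1, 8011727 to 8026309) was at 59.5, 63.5 and 67.6 CPM in shControl and 89.2, 81.9 and 83.3 CPM in shIFITM3. The groups did not overlap, and the level was 1.34 times higher, a log2 fold change of 0.41 (SE 0.0508, interval 0.31 to 0.52, edgeR adjusted p = 2.23e-07). Its interval lies below that of EGFR, and the ratio of EGFR to ERRFI1 per kilobase was 3.63, 3.42 and 2.98 in shControl and 4.02, 4.34 and 4.13 in shIFITM3.

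LRIG1 (chromosome 3, 66378797 to 66501121) was far lower, at 1.65, 1.45 and 1.31 CPM in shControl and 2.36, 2.35 and 2.34 CPM in shIFITM3, from 35 to 112 counts a library. Its log2 fold change was 0.68 (SE 0.249, interval 0.17 to 1.197, edgeR adjusted p = 0.023). The call was lost without shControl replicate 2 (adjusted p = 0.068) or shControl replicate 3 (0.0652). Exons of LRIG1 share 131 bases with SLC25A26 on the opposite strand, which was at 17.3 ± 0.55 and 17.7 ± 1.44 CPM (SD, n = 3 each). Among the other members EGFR, ERBB2, ERBB3 and ERRFI1 share 31 to 194 exon bases with another gene, and EGFR-AS1, antisense to EGFR, was at most 0.403 CPM.

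A wider list of 43 genes that act with these receptors was examined, of which 40 could be tested. Of these 17 rose and 10 fell (67.5% called, against 56.1% of all tested genes), with a median log2 fold change of 0.06. Genes of ligand release were higher in 3 of 7 cases and lower in 0. Thus 42.9% were called, against 56.1% of all tested genes (27.7% higher and 28.4% lower). No gene of this group was lower at an unadjusted p under 0.05 (0 in edgeR, and 0 called by DESeq2 or limma-voom). RHBDL2 stood below the controls in every knockdown sample but was not called (log2 fold change -0.21, interval -0.43 to 0.0078, edgeR adjusted p = 0.0941). The sheddase gene ADAM17, whose product releases HB-EGF, TGF-alpha and amphiregulin, had 91.0 ± 1.82 CPM in shControl and 87.2 ± 3.95 CPM in shIFITM3 (SD, n = 3 each) and was not called (interval -0.15 to 0.03, edgeR adjusted p = 0.26). For ADAM10, a second sheddase gene, the log2 fold change was -0.0020 (interval -0.07 to 0.06, edgeR adjusted p = 0.963). RHBDF2 and RHBDF1, the iRhom genes whose products carry ADAM17 to the cell surface, rose from 32.6 ± 2.32 to 48.0 ± 1.09 CPM (log2 fold change 0.54, edgeR adjusted p = 4.4e-08) and from 21.6 ± 1.09 to 28.9 ± 0.376 CPM (0.41, edgeR adjusted p = 2.35e-05; SD, n = 3 each). ADAM12 rose by 0.25.

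Among 8 adaptor genes, which link the receptors to RAS and PI3 kinase, 4 rose and 2 fell. Thus 75% were called, against 56.1% of all tested genes (27.7% higher and 28.4% lower). GAB2, a docking protein for PI3 kinase, rose from 26.1 ± 0.344 to 63.2 ± 1.39 CPM (SD, n = 3 each), the largest rise of the wider list (log2 fold change 1.28, edgeR adjusted p = 1.07e-15). PLCG1 (-0.30), a phospholipase recruited by EGFR, and PTPN11 (-0.18), the SHP2 phosphatase gene, fell. GRB2, the adaptor that brings SOS to the receptor, had 177 ± 6.29 CPM in shControl and 174 ± 4.64 CPM in shIFITM3 (SD, n = 3 each; edgeR adjusted p = 0.583).

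Genes of receptor turnover changed in both directions, with 6 of 13 higher and 4 lower. Thus 76.9% were called, against 56.1% of all tested genes (27.7% higher and 28.4% lower). CBLB, a ubiquitin ligase gene that marks active EGFR for breakdown, was at 5.56, 6.87 and 6.09 CPM in shControl and 12.1, 14.8 and 14.3 CPM in shIFITM3. It more than doubled, with a log2 fold change of 1.13 (SE 0.117, interval 0.89 to 1.37, edgeR adjusted p = 1.46e-08). HGS (0.43) and STAM (0.50), whose products sort ubiquitin-marked receptors at the endosome, rose as well. The related ligase gene CBL rose by 0.25, while CBLC fell (-0.22, edgeR adjusted p = 0.0452) with groups that overlapped. RNF41, which encodes a ligase for ERBB3, was not called (0.09, edgeR adjusted p = 0.272).

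Of 8 other negative regulators 4 rose and 2 fell. Thus 75% were called, against 56.1% of all tested genes (27.7% higher and 28.4% lower). LRIG3, a relative of LRIG1, went down from 13.6 ± 1.73 to 8.09 ± 0.463 CPM (SD, n = 3 each; log2 fold change -0.75, edgeR adjusted p = 4.12e-06), opposite in sign to LRIG1, and LRIG2 was not called (0.07, edgeR adjusted p = 0.672). The receptor phosphatase gene PTPRJ fell from 102 ± 0.588 to 59.9 ± 0.0685 CPM (-0.77, edgeR adjusted p = 1.94e-13), and PTPRK, which encodes a phosphatase that also acts on EGFR, rose from 133 ± 1.21 to 204 ± 7.31 CPM (0.62, edgeR adjusted p = 8.16e-13; SD, n = 3 each).

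**Figure D4:**
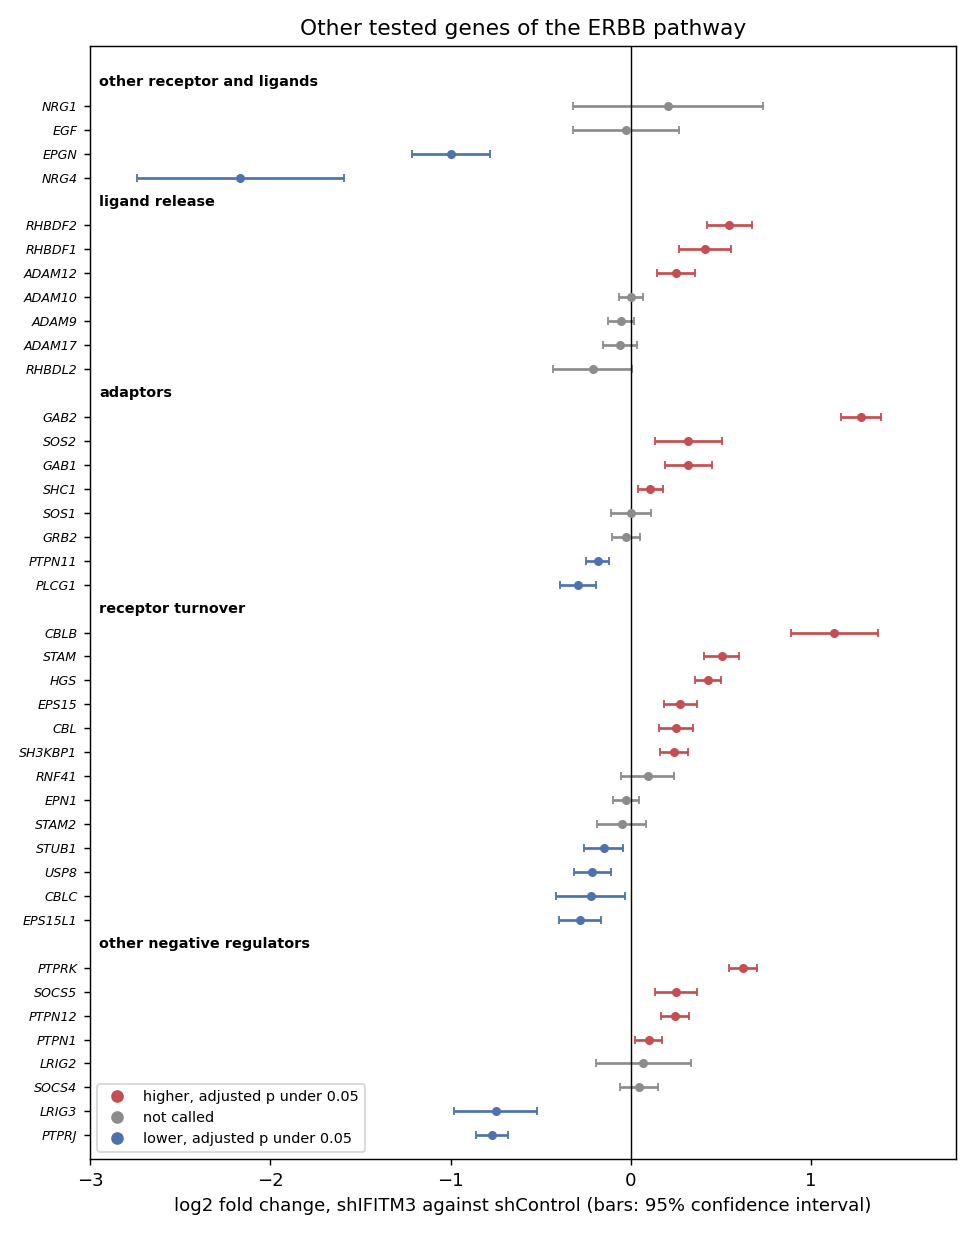
Log2 fold change of shIFITM3 against shControl (horizontal axis, bars are 95% confidence intervals) for the 40 tested genes of the wider ERBB list, grouped by role; red marks genes called higher, blue lower and grey not called. GAB2 (1.28) and CBLB (1.13) lead the rises and NRG4 (-2.17) and EPGN (-0.999) the falls.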

How the data were processed

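The deposited table holds unnormalized counts of reads per gene symbol for 6 PC-9 samples, made by the authors from stranded mRNA libraries per the labels. The submitters' processing notes name fastp 0.23.4, FastQC 0.12.1, HISAT2 2.2.1, Subread 2.0.6 (featureCounts) and SAMtools 1.20, with build hg38. Annotation and strand setting were not given in those notes. In each library 5.48 to 6.79 times as many genes had 2 counts as 1, so both reads of a pair may have been counted, and limits based on 3 counts, which cover counting error only, may be too low.

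Tests used edgeR 4.0.16 in R 4.3.3 (filterByExpr by group, TMM, glmQLFit on group, two-sided glmQLFTest, Benjamini-Hochberg over 14018 genes, threshold 0.05). They were also run on simulated counts in which few genes changed, unlike these data, so that run does not check error rates here. CPM uses total counts times the TMM factor, SE is the absolute log2 fold change over the square root of F, and 95% intervals carry no multiple-testing adjustment. P-values measure only the spread between these samples.

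Members and lists were chosen with earlier results of these data known. Named are the 10 members, IFITM3, the up to 3 genes of smallest p in each list and the 3 genes (average log2 CPM of at least 2) most correlated with the member that rose most. Other genes were named after their values were seen. Exon lengths come from GENCODE 29, and positions and promoters (9 of 10 members) from RefSeq GRCh38.p14. Alternatives were scaling by RLE, upper quartile or total counts, dropping the filter, a strict one (50 counts in 3 samples), DESeq2 1.42.0, limma-voom (limma 3.58.1), a replicate block, thinning shControl replicate 2, halving counts and leaving out each sample.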

Additional observations from a re-analysis of the deposited data

How the results depend on the processing

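EGFR, ERBB3, HBEGF and ERRFI1 stayed called higher in all 16 alternatives run, with log2 fold changes of 0.70 to 0.76, 0.74 to 0.80, 1.503 to 1.61 and 0.38 to 0.46. The count of members called higher was between 4 and 6. ERBB2 passed under total-count scaling (0.10), the strict filter (0.10) and halved counts (0.098), and ranged from 0.067 to 0.11 with 1 sample left out. TGFA passed as a fall under upper-quartile scaling (-0.10) and, with 1 sample left out, ranged from -0.12 to -0.047, so that 1 member was called lower under upper-quartile scaling and 0 to 1 with 1 sample left out. LRIG1 ranged from 0.62 to 0.75 with 1 sample left out. BTC turned to 0.10 without shIFITM3 replicate 3, and its range with 1 sample left out was -0.25 to 0.10. AREG and EREG were called in none of the alternatives. AREG ranged from 0.016 to 0.12 with 1 sample left out. EREG ranged from -0.62 without shIFITM3 replicate 3 to -0.086 without shIFITM3 replicate 1, and was not tested under the strict filter. Deviations from the group means had r of 0.016, 0.033 and 0.0063 in same-numbered samples. In samples of unlike number r was -0.040 to 0.025. With 3 samples in each group these values cannot tell whether the numbers pair the samples. With the replicate block 5 members were called higher and 0 lower. Of all tested genes 7124 to 8082 were called across the alternatives, and the causes of the differences were not tested. The median transcript length, chosen after seeing the data, moved the HBEGF share of the ligands from 34.8% to 12.7% in shIFITM3 and from 14.05% to 4.07% in shControl, and turned the ratio of the summed ligands from 1.18 to 0.937. Depth limits EREG, BTC, LRIG1 and NRG4, which rest on few counts.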
